A study of Mus musculus with 5 samples.

Results

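Protein phosphatases remove phosphate from serine, threonine or tyrosine residues of proteins and so reverse the work of protein kinases. The serine/threonine enzymes of the PPP group (PP1, PP2A, calcineurin, PP4, PP5 and PP6) mostly act as complexes in which a shared catalytic subunit is steered by a scaffold or regulatory subunit, whereas the magnesium-dependent PPM enzymes act without such subunits. Protein tyrosine phosphatases use a catalytic cysteine and occur as receptor-like and as intracellular forms, and the dual-specificity phosphatases of the same superfamily include those that switch off MAP kinases. In lung, receptor-type members are known from endothelial junctions and from leukocytes.

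The genes were taken by the platform's gene symbol, namely those starting with Ptpn, Ptpr, Ptp4, Ppp1 to Ppp6, Ppm1 or Dusp with a number, with 1 Dusp symbol excluded by the rule. Of the 122 genes found, with 131 array features, 86 had a feature read on 4 or 5 arrays and are called measured here, out of 10081 genes and unnamed features measured in all. Of the other 36 genes, 22 had values on 1 to 3 arrays and 14 had none. Each array set lung RNA of 1 bleomycin-treated 129svJ mouse, an inbred strain given an antitumour antibiotic that cleaves DNA and injures the lung, against a pool of lung RNA from control 129svJ mice, all RNA having been amplified. The bleomycin mice, numbered 1 to 5, were the replicates of the only group, and no control mouse was measured on its own. The sources used here give no dose, route, time, sex, age, dyes or number of pooled mice.

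Every value is a log2 ratio of the 2 channels, centred on the array's median. No source names the log base, and folds would be larger if it were natural. The labels do not settle which channel a positive ratio favours, the bleomycin mouse's or the pool's, so each gene is placed above or below 0 and no gain or loss after bleomycin is stated. For orientation, on the same scale the cell cycle kinase gene Cdk1 averaged −1.95 ± 0.25, the macrophage complement gene C1qb −2.69 ± 0.23 and the endothelial adhesion gene Pecam1 2.45 ± 0.30 (SD, n = 5). Each mean was tested against 0 with limma over all 10081 rows, and a gene is said to pass at an adjusted p under 0.05. Since all arrays share the pool, a peculiarity of that RNA can also pass this test, so a stricter setting that counts the pool as 1 control mouse was also run. Cdk1, C1qb and Pecam1 are the genes farthest from 0 in their marker lists. Of 13 measured dividing cell markers, 10 passed below 0 (against 24.1% of all genes) and 1 above (against 25.6%). Of 20 leukocyte markers 13 passed below 0 and 0 above, and of 11 endothelial markers 7 passed above 0 and 1 below. The arrays held values for 11350 to 12083 features and correlated across genes at Pearson's r of 0.732 to 0.857 over the 10 pairs, which share the pool.

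The phosphatase genes as a whole divided to both sides of 0 about as the other genes did, and about as large a share of them stood far from 0. Of 86 measured genes, 25 passed below 0 (29.1%, against 24.1% of all genes and unnamed features) and 19 passed above 0 (22.1%, against 25.6%), so that 44 passed in all (51.2%, against 49.7%). All measured arrays lay on 1 side of 0 for 42 of the 44 (48.8% of the 86, against 47.0% over all genes). The median of the 86 means was −0.05 and their median size 0.23, against −0.01 and 0.21 over all genes and unnamed features. A mean of at least 1 in size, a 2-fold difference, was reached by 1 gene below 0 (1.16%, against 2.37%) and 5 genes above 0 (5.81%, against 3.22%), 6 in all (6.98%, against 5.59%). Requiring a size beyond 1.2-fold in the test, 6 genes passed below 0 (6.98%, against 8.15%) and 9 above 0 (10.5%, against 10.2%), 15 in all (17.4%, against 18.4%).

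**Figure D1:**
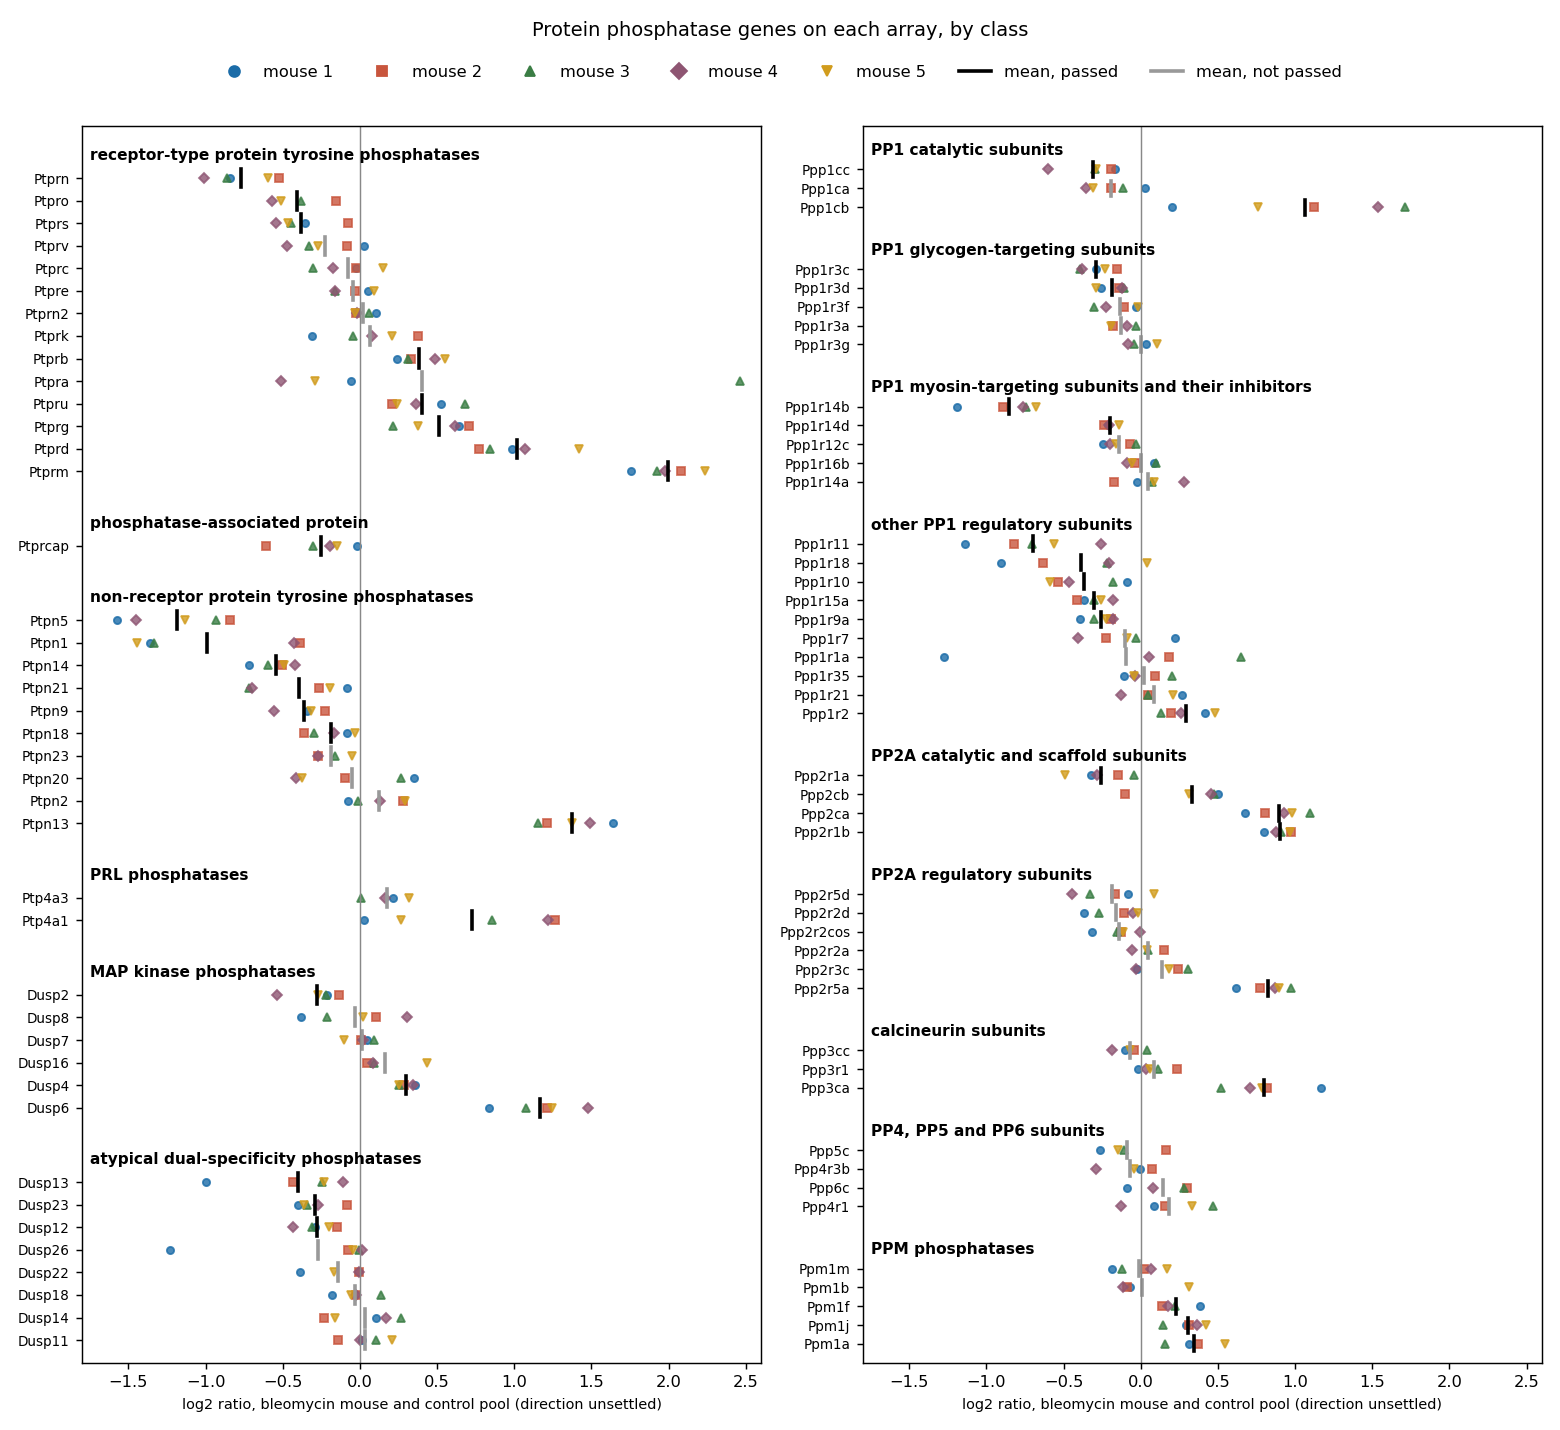
Log2 ratio of each measured phosphatase gene (rows, grouped by class) on the arrays of mice 1 to 5 (symbols), with the mean as a vertical bar, black where the gene passed and grey where it did not. Ptprm, Ptpn13 and Dusp6 lie above 0 in all mice, Ptpn5 lies below 0 in all mice, and the value of Ptpra in mouse 3, 2.465, stands apart from the others.

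With the pool counted as 1 control mouse, 6 genes passed, all above 0 (6.98% of the 86, against 2.87% of all genes above 0 and 4.95% on either side), and 0 passed below 0 (against 2.08%). The limma test against 0 alone passed 25 genes below 0. The other phosphatase genes that passed it did not pass in the stricter setting, where Ptprd came closest (adjusted p = 0.0582). The 6 genes were the receptor-type phosphatase Ptprm, the intracellular tyrosine phosphatase Ptpn13, the ERK phosphatase Dusp6, and the PP2A subunits Ppp2ca, Ppp2r1b and Ppp2r5a. Leaving out 1 mouse in that setting kept Ptprm, Ptpn13 and Ppp2r1b each time. Dusp6, Ppp2ca and Ppp2r5a then reached adjusted p-values of up to 0.0704, 0.0692 and 0.0654. Without mouse 2 and without mouse 3, 3 phosphatase genes passed each time, against 7 without mouse 1, where Ppp1r14b was added. Without mouse 4 and without mouse 5, 4 passed each time, with Ptprd added in the case of mouse 5. Of all 10081 genes and unnamed features, 592, 342, 291, 293 and 323 passed without mouse 1, 2, 3, 4 and 5. The count over all genes was thus also highest without mouse 1.

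The promoters of these 6 genes are shown because these genes passed under both settings. They are the 250 bases before the start of transcription in RefSeq, build GRCm38.p6, 5′ to 3′ on the gene's strand, at chr17:67354460-67354709 (minus strand), chr5:103424942-103425191 (plus), chr10:99262981-99263230 (plus), chr11:52098574-52098823 (plus), chr9:50856674-50856923 (plus) and chr1:191397042-191397291 (minus). Capitals mark the matches of 7 short motifs searched on both strands.
Ptprm: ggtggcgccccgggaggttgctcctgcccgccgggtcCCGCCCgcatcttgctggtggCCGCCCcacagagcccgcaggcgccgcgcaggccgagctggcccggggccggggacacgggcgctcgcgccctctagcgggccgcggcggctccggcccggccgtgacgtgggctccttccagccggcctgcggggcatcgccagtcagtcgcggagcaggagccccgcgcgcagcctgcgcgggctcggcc
Ptpn13: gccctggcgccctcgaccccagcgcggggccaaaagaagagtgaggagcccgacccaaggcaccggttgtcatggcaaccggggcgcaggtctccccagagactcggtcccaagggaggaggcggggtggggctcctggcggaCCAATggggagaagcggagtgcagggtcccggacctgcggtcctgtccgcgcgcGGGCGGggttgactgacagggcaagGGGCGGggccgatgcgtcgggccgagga
Dusp6: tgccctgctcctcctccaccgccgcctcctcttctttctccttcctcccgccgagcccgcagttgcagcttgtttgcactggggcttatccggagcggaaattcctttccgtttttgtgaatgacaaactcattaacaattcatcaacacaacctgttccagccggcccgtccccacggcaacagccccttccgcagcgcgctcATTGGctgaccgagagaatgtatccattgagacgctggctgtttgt
Ppp2ca: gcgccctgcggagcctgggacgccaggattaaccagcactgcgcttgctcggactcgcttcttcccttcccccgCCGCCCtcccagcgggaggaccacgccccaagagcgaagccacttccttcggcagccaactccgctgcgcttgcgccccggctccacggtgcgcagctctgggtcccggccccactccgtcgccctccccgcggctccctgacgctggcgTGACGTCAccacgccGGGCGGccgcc
Ppp2r1b: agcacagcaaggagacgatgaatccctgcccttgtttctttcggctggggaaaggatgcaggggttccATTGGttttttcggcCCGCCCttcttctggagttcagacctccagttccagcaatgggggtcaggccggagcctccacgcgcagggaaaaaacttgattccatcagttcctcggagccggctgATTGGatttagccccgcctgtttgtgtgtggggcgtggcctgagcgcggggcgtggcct
Ppp2r5a: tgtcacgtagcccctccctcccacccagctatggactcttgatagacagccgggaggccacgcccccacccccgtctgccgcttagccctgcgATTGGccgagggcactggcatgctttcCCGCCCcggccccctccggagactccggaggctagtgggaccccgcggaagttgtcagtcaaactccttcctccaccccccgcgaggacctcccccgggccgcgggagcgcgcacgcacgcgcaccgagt

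The motifs were the cAMP response element TGACGTCA, the GC box GGGCGG, the CCAAT box CCAAT, the TATA box TATAAA, the E-box CACGTG, the ETS core CCGGAAG and the palindromic NRF1 site, and no 2 matches overlapped. Ppp2ca alone of the 6 held a cAMP response element, 26 bases before the start, a motif found in 1.55% of 32851 windows of this length. GC boxes stood in 5 of the 6, all but Dusp6, and in 32.7% of all windows. CCAAT stood in Ptpn13, Dusp6, Ppp2r1b and Ppp2r5a, and in 33.8% of all windows. The TATA box, E-box, ETS core and NRF1 site matched in none of the 6, and in 12.4%, 6.02%, 6.91% and 0.782% of all windows. The share of G and C was 81.2% in Ptprm, 72.4% in Ptpn13, 56.4% in Dusp6, 73.6% in Ppp2ca, 59.2% in Ppp2r1b and 70.4% in Ppp2r5a, against a median of 52.4% over all windows. These matches describe the letters of the windows and were not measured as binding.

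Receptor-type tyrosine phosphatases held the farthest value of the family. Of 14 measured genes of 18, 5 passed above 0 (against 25.6% of all genes and unnamed features), 3 below 0 (against 24.1%) and 6 did not pass. Ptprm encodes PTPmu, a cell adhesion phosphatase that binds its like on neighbouring cells and is found in endothelium. Its log2 ratio was 1.76, 2.08, 1.925, 1.98 and 2.24 in mice 1 to 5. All mice lay within a narrow band far above 0. The mean of 2.00 ± 0.18 (SD, n = 5), a 3.99-fold difference, had an adjusted p of 1.62e-05 by limma and was the 24th highest of the 10081. Ptprd, a neuronal and epithelial adhesion phosphatase, stood at 0.99, 0.77, 0.85, 1.07 and 1.42. Mouse 5 was the highest, and the mean of 1.02 ± 0.25 passed (adjusted p = 0.000243), though not with the pool as 1 control mouse (adjusted p = 0.0582).

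The other 3 receptor-type genes above 0 had smaller means. Ptprg, whose product binds contactins, averaged 0.51 ± 0.21 (SD, n = 5) over 2 features that differed in size. One feature averaged 0.82 ± 0.38 and the other 0.21 ± 0.22, and the feature with the smaller mean lay below 0 in mouse 5. Ptpru, an adhesion phosphatase related to Ptprm, averaged 0.40 ± 0.20. Ptprb encodes VE-PTP, which dephosphorylates the angiopoietin receptor and VE-cadherin in endothelium, and averaged 0.385 ± 0.13. A further Ptprb feature with values on 3 arrays averaged −0.20 ± 0.31, and with that feature included Ptprb averaged 0.24 and no longer passed (adjusted p = 0.11). The angiopoietin receptor gene itself, Tek, averaged 1.53 ± 0.23 (adjusted p = 4.08e-05). Of 11 measured endothelial marker genes, 7 passed above 0 (against 25.6% of all genes) and 1 below 0 (against 24.1%). Their median on the arrays ran between 0.33 and 0.62. The part of endothelial RNA in the values of Ptprm and Ptprb was not tested, and in bulk lung a difference in the number of cells of a type and one in RNA per cell cannot be told apart.

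Below 0 in this class were Ptprn, Ptpro and Ptprs. Ptprn encodes IA-2, a catalytically inactive member of secretory granules in neuroendocrine cells. It stood at −0.84, −0.53, −0.86, −1.01 and −0.60 in mice 1 to 5, all below 0, with a mean of −0.77 ± 0.20 (adjusted p = 0.000392, and 0.0794 with the pool as 1 control mouse). Its relative Ptprn2 averaged 0.02 ± 0.06 (adjusted p = 0.777). Ptpro, known from podocytes and macrophages, averaged −0.405 ± 0.18 on 4 arrays, and Ptprs, a receptor for proteoglycans, −0.38 ± 0.18. The values of Ptprv stood closest to passing among the rest, with a mean of −0.23 ± 0.20 (adjusted p = 0.0504).

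Ptprc encodes CD45, the abundant receptor phosphatase of leukocytes. It stood at −0.03, −0.03, −0.30, −0.17 and 0.15, with a mean of −0.08 ± 0.17 (95% interval −0.247 to 0.094 from limma, adjusted p = 0.407). Ptprcap, which encodes a small CD45-associated protein of lymphocytes and is no phosphatase, averaged −0.255 ± 0.22 and passed narrowly (adjusted p = 0.045). That call was lost without mouse 2, 3, 4 or 5 (adjusted p up to 0.114). Of 20 measured leukocyte markers, 13 passed below 0 (against 24.1% of all genes) and 0 above 0 (against 25.6%). Their means had a median of −0.45, and their array medians lay between −0.47 and −0.27. The other 7 markers did not pass, with means from −0.063 for Cd3d to 0.09 for Ms4a1, so the marker means ran from −2.69 to 0.09. This range is so wide that the place of Ptprc inside it says little. The mean of Ptprc lay nearer to 0 than the marker median. The part of leukocyte RNA in these values was not tested.

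Ptpra, a widely expressed activator of Src kinases, had the widest spread of the family. It stood at −0.06 in mouse 1, 2.465 in mouse 3, −0.51 in mouse 4 and −0.29 in mouse 5, with no value in mouse 2. Only mouse 3 lay above 0, and its SD of 1.39 was the 16th widest of all genes. The mean of 0.40 did not pass (adjusted p = 0.527) and turned to −0.29 without mouse 3.

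Non-receptor tyrosine phosphatases lay on both sides of 0, with Ptpn13 far above and Ptpn5 far below. Of 10 measured genes of 15, 6 passed below 0 (against 24.1% of all genes and unnamed features), 1 above 0 (against 25.6%) and 3 did not pass. Ptpn13 encodes a large FERM and PDZ domain phosphatase that binds the death receptor Fas. It stood at 1.64, 1.21, 1.155, 1.49 and 1.38 in mice 1 to 5. The mice differed little, and the mean of 1.37 ± 0.20 (SD, n = 5; 2.59-fold) had an adjusted p of 4.08e-05. Ptpn5 encodes STEP, a phosphatase best known from striatal neurons. It had −1.57, −0.84, −0.93, −1.45 and −1.13, all below 0. Its mean of −1.19 ± 0.32 was the lowest of the family (adjusted p = 0.000285, and 0.0649 with the pool as 1 control mouse).

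Ptpn1 encodes PTP1B, which dephosphorylates the insulin and leptin receptors. Its values lay in 2 sets, −1.36, −1.335 and −1.44 in mice 1, 3 and 5 and −0.39 and −0.43 in mice 2 and 4. All lay below 0, and the mean was −0.99 ± 0.53 (adjusted p = 0.0044, and 0.267 with the pool as 1 control mouse). The FERM domain phosphatases Ptpn14, a partner of the YAP coactivator, and Ptpn21 averaged −0.545 ± 0.115 and −0.39 ± 0.30. Ptpn14 was alike in all mice, between −0.72 and −0.42 (adjusted p = 0.000426, and 0.0833 with the pool as 1 control mouse), whereas Ptpn21 ran from −0.72 to −0.08 and did not pass without mouse 3 or 4. Ptpn9 averaged −0.36 ± 0.14 on 4 arrays, and Ptpn18 −0.19 ± 0.14 with a call that was lost without mouse 1, 2, 3 or 4 (adjusted p up to 0.137). Ptpn2, the T cell phosphatase that acts on JAK kinases, averaged 0.12 ± 0.17 and did not pass (adjusted p = 0.196).

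Of the small PRL phosphatases, which are prenylated and held at membranes, Ptp4a1 averaged 0.725 ± 0.56 and Ptp4a3 0.17 ± 0.13 on 4 arrays. Ptp4a1 stood at 0.03, 1.26, 0.86, 1.22 and 0.26 in mice 1 to 5. Mouse 1 lay near 0 and mouse 5 next, so the spread was nearly as large as the mean. Its adjusted p was 0.0184, 0.432 with the pool as 1 control mouse, and up to 0.0593 without mouse 2, 3 or 4.

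Among MAP kinase phosphatases, Dusp6 stood apart. Of 6 measured genes of 7, 2 passed above 0 (Dusp6 and Dusp4, against 25.6% of all genes) and 1 below 0 (Dusp2, against 24.1%). Dusp7, Dusp8 and Dusp16 did not pass. Dusp6 encodes the cytoplasmic ERK phosphatase MKP-3, itself induced by ERK signalling. It had 0.83, 1.21, 1.075, 1.48 and 1.25 in mice 1 to 5, all far above 0. The mean was 1.17 ± 0.24 (SD, n = 5; 2.25-fold, adjusted p = 0.000118). Dusp4, a nuclear MAP kinase phosphatase, stood between 0.25 and 0.36 in the 5 mice and averaged 0.30 ± 0.05, a small difference with a narrow spread. Dusp2, the nuclear phosphatase PAC-1 of activated leukocytes, averaged −0.28 ± 0.15. Dusp7, the cytoplasmic ERK phosphatase most like Dusp6, averaged 0.01 ± 0.07 (95% interval −0.106 to 0.13, adjusted p = 0.845). The MAP kinases themselves were measured for 4 of 13 listed genes, of which Mapk12 (p38 gamma, 0.71 ± 0.19) and Mapk9 (JNK2, 0.285 ± 0.14 on 4 arrays) passed above 0 and Mapk6 (ERK3, −0.16 ± 0.07) below 0.

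Atypical dual-specificity phosphatases stayed nearer to 0. Of 8 measured genes of 12, 3 passed below 0 (against 24.1% of all genes) and 0 above (against 25.6%), with means from −0.40 to 0.04. Dusp23 and Dusp12, small phosphatases of wide expression, averaged −0.29 ± 0.13 and −0.28 ± 0.11 with all mice below 0. Dusp13, a gene of testis and skeletal muscle, averaged −0.40 ± 0.35 and ran from −0.998 in mouse 1 to −0.11 in mouse 4. Its call was lost without mouse 2, 3 or 5 (adjusted p up to 0.0867).

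Further phosphatase genes known from muscle are given here, picked after their values were seen. Dusp26, a phosphatase of brain and striated muscle, stood at −1.23 in mouse 1 and between −0.08 and 0.01 in the other mice. Ppp1r1a, the PP1 inhibitor-1 of muscle, brain and fat, stood at −1.27 in mouse 1, 0.18 in mouse 2, 0.65 in mouse 3 and 0.055 in mouse 4. Ppp1r27, a dysferlin-binding PP1 subunit of skeletal muscle with values on only 3 arrays, stood at −1.34, −0.42 and −0.14 in mice 1, 2 and 5. Ppp1r3a, the glycogen-targeting subunit of skeletal muscle, had no value in mouse 1 and lay between −0.195 and −0.03 in the others. Of 16 measured skeletal muscle markers, 11 passed below 0 (against 24.1% of all genes) and 0 above (against 25.6%). Their median was −3.35 in mouse 1, −2.32 in mouse 2, −0.08 in mouse 3, −0.34 in mouse 4 and −2.06 in mouse 5. The deposited values of mouse 1 had the widest spread of the arrays (SD 0.59, against 0.49 to 0.53 in the others). The part of muscle RNA in the values of these phosphatase genes was not tested.

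**Figure D2:**
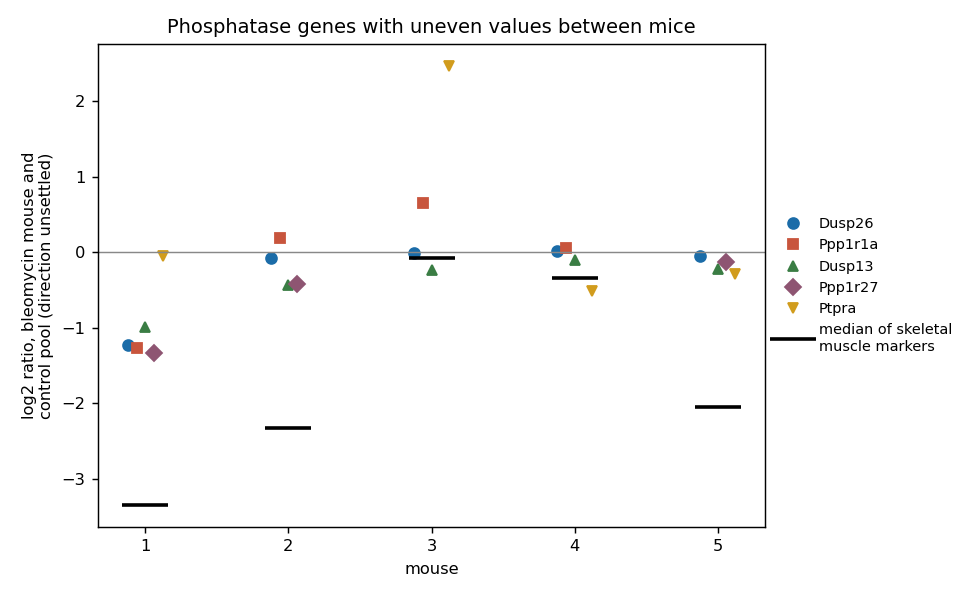
Log2 ratios (vertical axis) of Dusp26, Ppp1r1a, Dusp13, Ppp1r27 and Ptpra in mice 1 to 5 (horizontal axis), with the median of 16 skeletal muscle markers as a black bar for each mouse. Dusp26, Ppp1r1a, Dusp13 and Ppp1r27 are lowest in mouse 1, where the marker median is −3.35, and Ptpra stands at 2.465 in mouse 3. In mice 2 and 5 the marker median is −2.32 and −2.06. There Dusp26 stands at −0.08 and −0.05, Dusp13 at −0.44 and −0.23 and Ppp1r27 at −0.42 and −0.14. Ppp1r1a stands at 0.18 in mouse 2 and has no value in mouse 5.

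PP1 genes passed below 0 more often in number than above. Of 23 measured genes of 35, 10 passed below 0 (against 24.1% of all genes), 2 above 0 (against 25.6%) and 11 did not pass. The 3 catalytic subunits, which share most of their sequence and differ in their partners, did not stand on the same side. Ppp1cb, the catalytic subunit of myosin phosphatase, stood at 0.20, 1.12, 1.715, 1.54 and 0.76 in mice 1 to 5. All lay above 0, mouse 1 least, and the mean was 1.07 ± 0.61 (SD, n = 5; 2.1-fold, adjusted p = 0.0055, and 0.29 with the pool as 1 control mouse). Ppp1cc had −0.17, −0.19, −0.295, −0.60 and −0.29, all below 0, with a mean of −0.31 ± 0.17 (adjusted p = 0.0115). Ppp1ca averaged −0.19 ± 0.15 and did not pass (adjusted p = 0.0518), but passed without mouse 1 (−0.245, adjusted p = 0.0218).

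Of the 20 measured PP1 regulatory genes, which are part of the 23, 9 passed below 0 (against 24.1% of all genes) and 1 above (against 25.6%). Ppp1r14b, the myosin phosphatase inhibitor PHI-1, stood at −1.19, −0.89, −0.75, −0.76 and −0.68 in mice 1 to 5. Mouse 1 was the lowest, and the mean was −0.85 ± 0.20 (adjusted p = 0.000261, and 0.0612 with the pool as 1 control mouse). Ppp1r14a, the related inhibitor CPI-17 of smooth muscle, averaged 0.05 ± 0.165 and did not pass (adjusted p = 0.594). Ppp1r14d averaged −0.20 ± 0.04 on 4 arrays and missed the threshold without any 1 of those arrays. The myosin-targeting subunit gene Ppp1r12c averaged −0.14 ± 0.09 (adjusted p = 0.0636), while Ppp1r12a had a single value and Ppp1r12b none. Of 6 measured smooth muscle markers, 2 passed below 0 (against 24.1% of all genes) and 1 above (against 25.6%).

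Ppp1r11, the PP1 inhibitor-3, had the lowest mean among the remaining PP1 regulators, with −1.14, −0.82, −0.71, −0.26 and −0.56 in mice 1 to 5. All mice lay below 0 at unequal distance, and the mean was −0.70 ± 0.33 (adjusted p = 0.00296, and 0.227 with the pool as 1 control mouse). Ppp1r2, the inhibitor-2, lay above 0 in all mice with a mean of 0.30 ± 0.15 (adjusted p = 0.00974). Ppp1r15a encodes GADD34, which brings PP1 to the translation factor eIF2alpha during the stress response. It stood between −0.41 and −0.18 and averaged −0.30 ± 0.09. Ppp1r10, a nuclear PP1 subunit, Ppp1r9a, the actin-binding neurabin, and Ppp1r18, the actin-binding phostensin, averaged −0.37 ± 0.22, −0.26 ± 0.09 and −0.385 ± 0.38. Ppp1r18 lay above 0 in mouse 5, and at an adjusted p of 0.0491 it no longer passed without mouse 1, 2, 3 or 4. The glycogen-targeting subunits Ppp1r3c and Ppp1r3d passed below 0, at −0.29 ± 0.10 and −0.18 ± 0.085, and Ppp1r3a, Ppp1r3f and Ppp1r3g did not pass.

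PP2A, the most abundant serine/threonine phosphatase of many cells, is built from a scaffold (A), a catalytic (C) and a regulatory (B) subunit. A member of each kind lay far above 0. Of 10 measured genes of 12, 4 passed above 0 (against 25.6% of all genes), 1 below 0 (against 24.1%) and 5 did not pass. Ppp2ca, the catalytic alpha subunit, had 0.68, 0.80, 1.095, 0.93 and 0.98 in mice 1 to 5, with a mean of 0.90 ± 0.16 (SD, n = 5; adjusted p = 0.00012). Ppp2r1b, the beta scaffold, had 0.80, 0.97, 0.91, 0.87 and 0.965, a spread of 0.07 around a mean of 0.90 (adjusted p = 3.45e-05). Ppp2r5a, a regulatory subunit of the B56 group, had 0.62, 0.775, 0.97, 0.87 and 0.895, with a mean of 0.83 ± 0.14 (adjusted p = 0.00011). For each of these 3 genes mouse 1 was the lowest and all mice lay above 0.6. The other isoforms stood elsewhere. Ppp2cb, the catalytic beta subunit, averaged 0.33 ± 0.25 with mouse 2 at −0.10, and at an adjusted p of 0.0258 it no longer passed without mouse 1, 3, 4 or 5. Ppp2r1a, the alpha scaffold and the commoner of the 2 in most tissues, lay below 0 in all mice with a mean of −0.26 ± 0.17 (adjusted p = 0.0229), a call lost without mouse 1, 4 or 5.

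The regulatory genes Ppp2r2a, Ppp2r2d, Ppp2r3c and Ppp2r5d had means between −0.19 and 0.135 and did not pass. Ppp2r2cos, whose name marks a transcript from the strand opposite to a PP2A regulatory gene, averaged −0.14 ± 0.11 (adjusted p = 0.0765). For Ppp2r3c a further feature on 3 arrays averaged −0.12, against 0.135 for the measured one. Of 14 measured partners of PP1 and PP2A, 6 passed below 0 (against 24.1% of all genes) and 1 above (against 25.6%). Arpp19, which inhibits PP2A with the B55 subunit during mitosis, was lowest at −1.29 ± 0.34 (adjusted p = 0.00026, and 0.0611 with the pool as 1 control mouse), and its near relative Ensa was the one above 0, at 0.23 ± 0.09 (adjusted p = 0.0115).

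Calcineurin is the calcium-activated phosphatase that releases NFAT factors to the nucleus. Of its 3 measured subunit genes, 1 passed above 0 (against 25.6% of all genes) and 0 below (against 24.1%). Ppp3ca, the catalytic alpha subunit, stood at 1.17, 0.82, 0.52, 0.71 and 0.79 in mice 1 to 5, all above 0, with mouse 1 the highest. Its mean was 0.80 ± 0.24 (adjusted p = 0.000538, and 0.0962 with the pool as 1 control mouse). The catalytic gamma gene Ppp3cc averaged −0.07 ± 0.08 (95% interval −0.195 to 0.05, adjusted p = 0.29), and the regulatory gene Ppp3r1 0.085 ± 0.10 (adjusted p = 0.235). The catalytic beta gene Ppp3cb had a value in mouse 1 only, at 0.26. Of 9 measured calcineurin partners, 4 passed above 0 (against 25.6% of all genes) and 3 below (against 24.1%). Rcan1, an inhibitor of calcineurin that NFAT induces, averaged 0.91 ± 0.18 (adjusted p = 0.000143), and Nfatc1 0.53 ± 0.13. Fkbp1a also passed above 0, at 0.61 ± 0.18. Ppia passed below 0 at −1.51 ± 0.47, and so did Crtc2 at −0.21 ± 0.12 on 4 arrays. Nfatc2 and Nfat5 averaged −0.11 ± 0.11 and −0.06 ± 0.09, each on 4 arrays, and did not pass (adjusted p = 0.216 and 0.424). The anchoring protein gene Akap5 was highest at 1.33 ± 0.41 (adjusted p = 0.00044, and 0.0848 with the pool as 1 control mouse), and the calmodulin gene Calm3 lowest at −1.57 ± 0.08 (adjusted p = 8.37e-06). Rcan1 and Calm3 also passed with the pool as 1 control mouse, at adjusted p of 0.0401 and 0.0041.

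**Figure D3:**
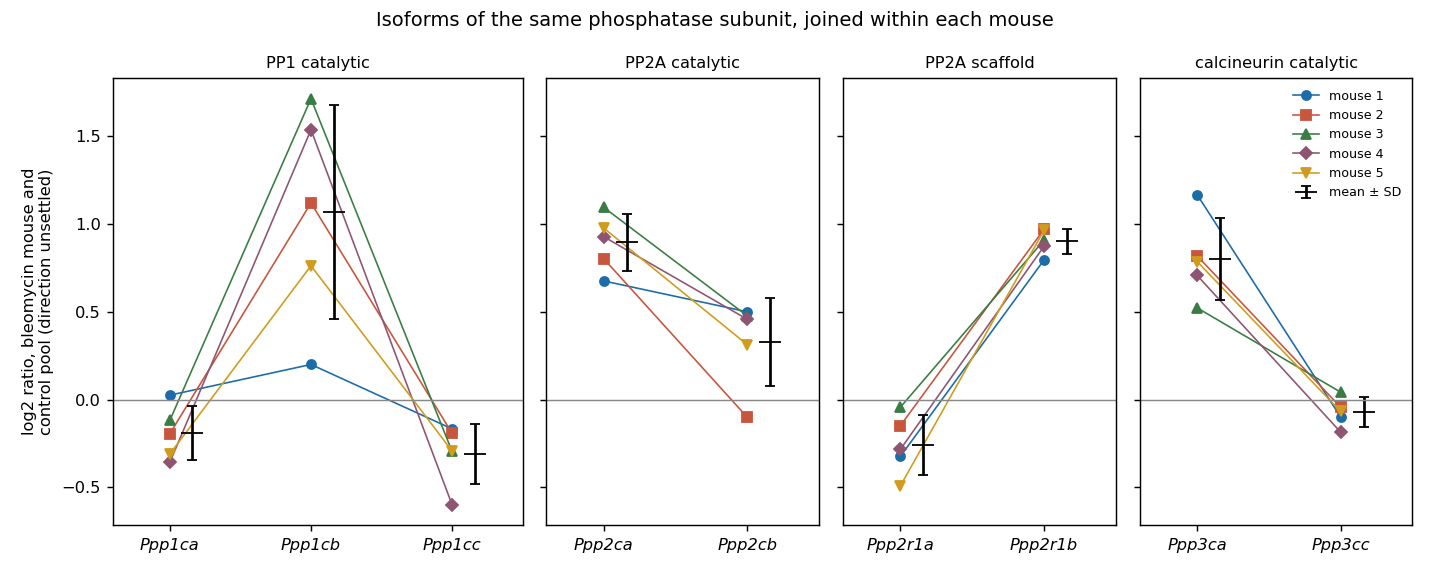
Log2 ratios (vertical axis) of isoforms of PP1 catalytic, PP2A catalytic, PP2A scaffold and calcineurin catalytic subunits, joined by a line within each of mice 1 to 5, with mean and SD in black. Ppp1cb lies above Ppp1ca and Ppp1cc, Ppp2ca above Ppp2cb, Ppp2r1b above Ppp2r1a and Ppp3ca above Ppp3cc in every mouse.

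Isoforms of the same subunit were compared within each array, for 6 pairs chosen after their values were seen. The log2 ratio of Ppp1cb exceeded that of Ppp1cc by 1.38 ± 0.73 and that of Ppp1ca by 1.26 ± 0.70 (SD, n = 5). Ppp2ca exceeded Ppp2cb by 0.57 ± 0.27, Ppp2r1b exceeded Ppp2r1a by 1.16 ± 0.18, and Ppp3ca exceeded Ppp3cc by 0.87 ± 0.28. The first-named gene of these 5 pairs was higher in 5 of 5 mice. The exact two-sided sign-flip test gave p = 0.0625 for each, the smallest that 5 arrays allow, and 0.075 after Benjamini-Hochberg adjustment over the 6 pairs. Because the pairs were chosen with their values seen and all arrays share the pool, this test cannot decide whether the isoforms differ. Ppp1ca and Ppp1cc differed by 0.12 ± 0.12, with Ppp1ca higher in 3 of 5 mice (exact p = 0.25). Differences of ratios say nothing about which isoform is more abundant, and cross-hybridisation between such similar transcripts was not tested.

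Of the remaining serine/threonine phosphatases, 0 of 4 measured PP4, PP5 and PP6 genes passed (against 49.7% of all genes on either side). The means of Ppp4r1, Ppp4r3b, Ppp5c and Ppp6c ran from −0.09 to 0.18. The PP5 gene Ppp5c, a partner of HSP90, averaged −0.09 ± 0.18 and the PP6 catalytic gene Ppp6c 0.14 ± 0.18, each on 4 arrays. The PP4 catalytic gene Ppp4c had a value in mouse 3 only, at 1.665. Among PPM phosphatases, 3 of 5 measured genes of 8 passed above 0 (against 25.6% of all genes) and 0 below (against 24.1%). Ppm1a, which acts on SMAD and stress kinases, averaged 0.35 ± 0.16 on 4 arrays, but a further feature on 3 arrays averaged −0.04, and with it Ppm1a averaged 0.23 and did not pass (adjusted p = 0.107). Ppm1j averaged 0.31 ± 0.10 with all mice above 0, and Ppm1f, which acts on PAK and CaM kinases, 0.23 ± 0.11 on 4 arrays. The call of Ppm1f was lost without any 1 of those arrays (adjusted p up to 0.0792).

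**Figure D4:**
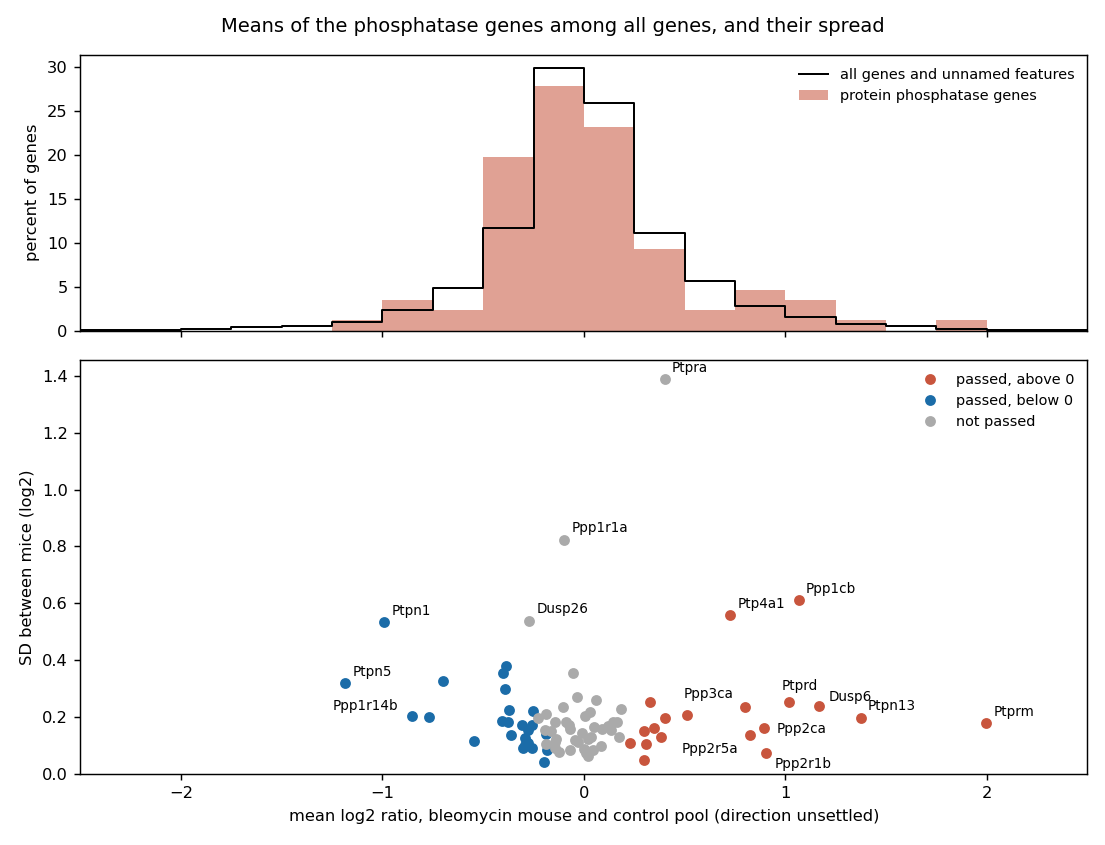
Top, share of the 86 measured phosphatase genes (bars) and of all 10081 genes and unnamed features (line) by mean log2 ratio in bins of 0.25. Bottom, mean log2 ratio (horizontal axis) and SD between mice (vertical axis) of each phosphatase gene, coloured by its test. Ptprm has a mean of 2.00 with an SD of 0.18, whereas Ppp1cb, Ptp4a1 and Ptpn1 combine means beyond 0.7 in size with SDs above 0.5.

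The spread between mice separated genes with similar means. The SD of the 86 genes had a median of 0.16, as over all genes, and ran from 0.04 for Ppp1r14d to 1.39 for Ptpra. Ppp2r1b and Ppp1cb had means of 0.90 and 1.07 with SDs of 0.07 and 0.61. Ppp1cb and Ptp4a1 had their lowest values in mouse 1 and their next lowest in mouse 5. Ptpre, Ptprk, Ptpn20, Ptpn23, Dusp8, Dusp11, Dusp14, Dusp18, Dusp22, Ppp1r7, Ppp1r16b, Ppp1r21, Ppp1r35, Ppm1b and Ppm1m did not pass and had means between −0.189 for Ptpn23 and 0.089 for Ppp1r21. Per array, 42 to 53 of the measured genes lay below 0 and the median ran from −0.09 to −0.01.

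Outside the name patterns, 26 of 40 listed further phosphatases and related genes were measured. Of these, 8 passed above 0 (against 25.6% of all genes) and 6 below (against 24.1%). The list also held genes that are not protein phosphatases in the strict sense. Among those, Mtmr1, Mtmr4 and Tns1 passed above 0, Mtmr3 and Ptpmt1 passed below 0, and Mtmr2 did not pass. Ilkap, a PPM phosphatase that binds integrin-linked kinase, was highest at 1.19 ± 0.17 (adjusted p = 4.94e-05, and 0.0183 with the pool as 1 control mouse). Ctdnep1, a nuclear membrane phosphatase that acts on lipin, was lowest at −0.51 ± 0.235 (adjusted p = 0.00366). Of 13 measured ligands and partners of receptor-type and other tyrosine phosphatases, 6 passed above 0 (against 25.6% of all genes) and 2 below (against 24.1%). Ctnnb1, the beta-catenin of cell junctions, was highest at 2.02 ± 0.25 (adjusted p = 2.5e-05), with 2.36, 1.88, 2.125, 2.05 and 1.70 in mice 1 to 5. Sirpa, a receptor that recruits SHP phosphatases in macrophages, was lowest at −0.40 ± 0.175 on 4 arrays. The genes of those phosphatases, Ptpn6 and Ptpn11, had no value on any array.

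The genes below 4 arrays are given as values without a test. Ptpn12, which encodes PTP-PEST and acts on focal adhesion proteins, had 0.74, 0.495 and 1.095 in mice 1, 2 and 3, the only gene of this set with 3 values all beyond 0.4 in size. Dusp10, Dusp19, Dusp28, Ppp1r14bl and Ppp1r17 also had 3 values each, all between −0.265 and 0.324. Besides Ppp1r27 and Ppp4c, described above, the remaining genes had 1 or 2 values. The 14 genes without any value were Ppm1k, Ppp1r12b, Ppp1r15b, Ppp1r16a, Ppp1r2-ps7, Ppp1r32, Ppp1r42, Ppp2r5e, Ptp4a2, Ptpn6, Ptpn11, Ptpn22, Ptprr and Ptprz1, and nothing can be said of them here.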

How the data were processed

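Lung RNA of 5 bleomycin-treated mice was measured on 2-colour arrays against 1 control pool. The deposited values are 1 log2 ratio per feature and array, as taken from their range, and the sources used here do not say how the authors normalized them. Deposited array medians were 0.011 to 0.026. No spot signals were used, so precision rests on the 5 arrays. Features with values on at least 4 arrays were kept (10702 of 17280), each array was centred on its median, and features of 1 symbol were averaged. In the platform's annotation 14722 features had 1 symbol, 1 had several and 2557 had none. RefSeq's GRCm38.p6 table matched 14445 of them by identifier and changed no phosphatase symbol. limma 3.58.1 in R 4.3.3 (intercept only, empirical Bayes, two-sided, Benjamini-Hochberg over 10081 rows) tested each mean against 0. This leaves out the spread of control mice. Counting the pool as 1 control mouse makes the variance of the mean s2 times (1/n + 1). Whether dyes were swapped is not stated, so whether dye bias cancels is unknown. On simulated data with 10081 genes and 200 changed in each of 10 runs, 78.4% of 1.5-fold and 94.5% of 2-fold changes were recovered, and 4.29% of calls were false. The simulated noise was independent between arrays and had no shared pool, so these shares leave out error from the pool. In the data 5008 rows passed, far more than the 200 changed, so the false share of the real calls is not known from this.

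The phosphatase genes, lists and alternatives were chosen with earlier results of these data known. Named in full were genes that passed with a mean of at least 1 in size, the lowest and highest that passed in each class, the catalytic subunits, and the extremes of the partner lists. Other genes were named to account for each class.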

Additional observations from a re-analysis of the deposited data

Results flagged for a closer look

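Of 86 measured phosphatase genes, 4 had a mouse whose gap to its nearest neighbour exceeded the Dixon limit for its number of arrays, which chance does in about 1 of 20 groups. Dusp26 stood at −1.232 in mouse 1, against −0.076 to 0.013 in the others. Ptpra stood at 2.465 in mouse 3, against −0.511 to −0.057 in the others. Dusp16 stood at 0.437 in mouse 5, against 0.043 to 0.094 in the others, and Ppm1b at 0.312 in mouse 5, against −0.115 to −0.072. None of the 4 genes passed the limma test.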

How the results depend on the processing

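Counting the pool as 1 control mouse, 499 of all genes and unnamed features passed (210 below 0, 289 above 0), with 6 phosphatase genes (0 below, 6 above) and 5 genes of the partner lists (1 below, 4 above). With 1.2-fold required, the counts were 1855 (822 below, 1033 above), 15 (6 below, 9 above) and 19 (6 below, 13 above). Without these settings they were 5008, 44 and 39. The pool setting without 1 mouse, chosen after seeing the data, passed 592, 342, 291, 293 and 323 in all without mouse 1, 2, 3, 4 and 5 (246, 155, 129, 128 and 138 below, 346, 187, 162, 165 and 185 above), 3 to 7 phosphatase genes (0 to 1 below, 3 to 6 above) and 4 to 8 partner genes (1 to 2 below, 3 to 6 above). The fall of these counts follows from the added variance or the required size, which lower every test statistic. Of 348 values of 27 named genes under the alternatives, 299 kept their side of 0 and of the threshold, 47 lost the threshold, 2 gained it and 0 turned sign. The pool, 1.2-fold, robust and symbol settings leave the mean unchanged, so no sign could turn there. Outside the 27 genes, leaving out 1 mouse turned the sign of Ptpra, Ptprk, Ptpn20 and Dusp8, among others that had not passed. Without mouse 1, 2, 3, 4 and 5, the limma test against 0 passed 40, 36, 36, 36 and 39 of the 86 phosphatase genes. Of all 10081 genes and unnamed features it passed 4607, 4192, 4115, 4339 and 4292. Leaving out each mouse in turn, 33 of the 44 phosphatase genes passed every time and 11 were lost at least once. The genes kept every time were not counted over all genes, so whether 11 is unusual is not known. Ptprcap and Ptpn18 were also lost without centring or with arrays scaled to a common spread, and Ppp1r18 without centring, with robust empirical Bayes or with features on 3 or more arrays (adjusted p = 0.0547), and the cause was not tested. Features on 3 or more arrays also lost Ptprb and Ppm1a (adjusted p of 0.11 and 0.107), each through a further feature that was added. Genes with 4 values had no value where all 5 arrays were required. No paired analysis was possible because there is 1 group, with no control mice measured separately.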
